A study of Mus musculus with 18 samples.

Results

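GABA, the main inhibitory transmitter of the nervous system, acts on primary sensory neurons through ion channels and through G-protein-coupled receptors. The channels, GABA-A receptors, are rings of subunits that pass chloride; most hold alpha, beta and gamma subunits, and which member of each class is built in sets where the receptor sits and how it responds to drugs such as benzodiazepines. The coupled receptors, GABA-B, are pairs of the ligand-binding subunit Gabbr1 and the signalling subunit Gabbr2, and lower transmitter release. In sensory neurons chloride is kept high inside the cell, so that opening GABA-A channels depolarises the terminal and dampens its output to the spinal cord.

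The transcripts of 7 GABA receptor subunits were followed in mouse dorsal root ganglia, where the cell bodies of sensory neurons lie. They are the alpha subunits Gabra2, Gabra3 and Gabra5, the beta subunit Gabrb2, the gamma subunit Gabrg1, and Gabbr1 and Gabbr2. The genes were picked by name from the 21288 genes of the count table, and all 7 were among the 19010 genes that passed the filter on low counts.

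Poly(A) RNA sequencing covered 18 libraries in 6 groups: 4 naive wild-type (WT) and 4 naive importin alpha3 knockout (KO) libraries, 3 WT and 3 KO libraries 7 d after spared nerve injury, and 1 WT and 3 KO libraries 2.5 months after it. Spared nerve injury cuts branches of the sciatic nerve and leaves another intact, and is a model of neuropathic pain. Importin alpha3, encoded by Kpna4, carries proteins into the nucleus; the series is about its part in neuropathic pain through cFOS. The labels used here name no allele, Cre driver, strain, age or sham-operated group, so injury, surgery and age cannot be told apart. They also do not say that each library is a separate animal, and p-values measure the spread between libraries. Libraries are named by genotype and number, as in KO-422.

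Total counts ran from 12565448 to 21585680 per library. Kpna4 was at 121 ± 11.5 CPM in naive WT (SD, n = 4) and 2.29 ± 0.489 CPM in naive KO (SD, n = 4), where CPM is the count scaled to a common library size. The injury marker Atf3 rose at 7 d in both genotypes, by 4.33 ± 0.44 on the log2 scale in their mean (adjusted p = 1.11e-05, edgeR). Summed over 12 pan-neuronal markers the ganglia held 10853 to 14668 CPM when naive and 14366 to 23338 CPM at 7 d. The highest sum was in KO-422, and the median change of the 12 markers at 7 d over both genotypes was 0.04 (log2). The 8 spinal cord markers in the table summed to between 8.97 and 24.1 CPM, with Olig2, Mog or Slc6a5 at 0 in some groups, and 6 satellite glia markers to between 2692 and 4834 CPM. KO-422 at 7 d and the 4 libraries at 2.5 months stood apart in gene length: counts fell by 0.29 to 0.69 (log2) for each 10-fold of exon length, against a slope of -0.06 to 0.24 in the other 13. KO-40 had 12.3% mitochondrial counts, against 3.43% to 8.44% in the rest. In whole ganglia, fewer cells of a type and less RNA per cell cannot be told apart.

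In naive WT ganglia the GABA-B subunits were far more abundant than the GABA-A subunits, compared as CPM per kilobase of merged exons. Gabbr1 stood at 79.8 ± 5.44 CPM per kilobase (SD, n = 4). Gabbr2 followed at 48.3 ± 4.17. Gabra2, an alpha subunit known for its part in pain control in the spinal cord, reached 12.1 ± 0.550, the highest of the 5 GABA-A members, and these 3 did not overlap with each other or with the members below them.

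The 4 remaining members were lower. Gabrg1, a gamma subunit that gives channels of low benzodiazepine sensitivity, was at 3.52 ± 0.507 CPM per kilobase (SD, n = 4). Gabra5, known from the hippocampus for channels outside the synapse, was at 3.18 ± 0.674, and Gabra3 was at 3.00 ± 0.313. The ranges of these 3 overlapped, so their order was not resolved beyond the spread. Gabrb2 was lowest of the members at 1.30 ± 0.200, below all libraries of the other members and above Gabrb1 at 0.426 ± 0.0606. The order of the 7 was the same when the longest coding transcript served as the length. The plot of subunit levels on a log axis shows the steps: GABA-B, then Gabra2, then the rest.

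**Figure D1:**
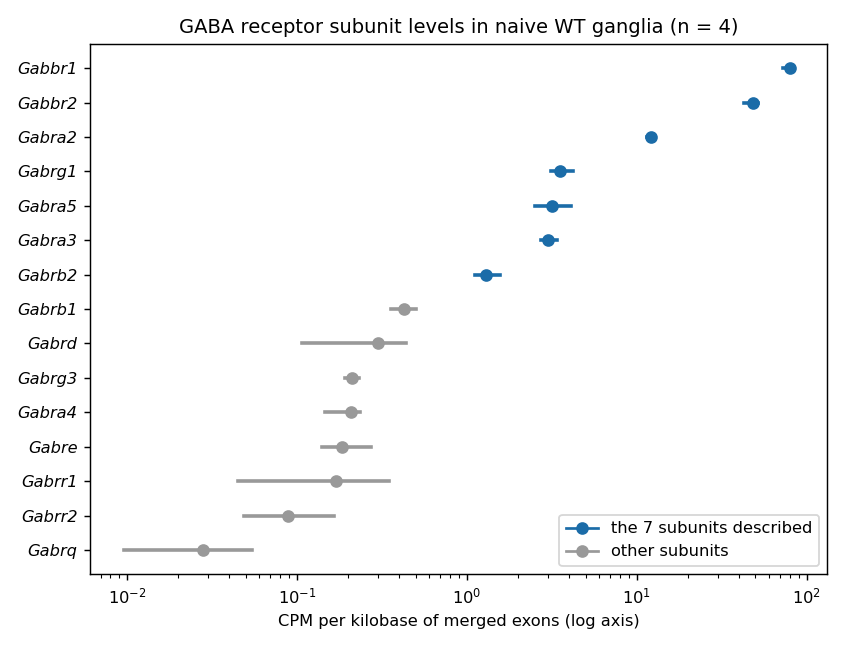
Mean (point) and range (line) of CPM per kilobase of merged exons, on a log axis, for the GABA receptor subunits analysed here over the 4 naive WT libraries; the 7 subunits described are blue. Gabbr1 and Gabbr2 lead at 79.8 and 48.3, and Gabrg1, Gabra5 and Gabra3 overlap near 3. Gabrr3, at 0 in some libraries, is not drawn.

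The order of the top 3, and Gabrb2 as the lowest, held in all 6 groups. In WT the middle order by mean was Gabrg1, Gabra5, Gabra3 at every time. In KO the ranks of Gabra5 and Gabra3 moved with time after injury. In the 7 d KO group Gabrg1 stood at 8.65 ± 2.95 CPM per kilobase (SD, n = 3) and Gabra5 at 5.38 ± 1.77. Gabra3 stood at 1.996 ± 0.344 there, below every library of both. In the naive KO group the same 3 genes were at 3.84 ± 0.859, 2.68 ± 0.529 and 3.45 ± 0.374 (SD, n = 4), with ranges that overlapped between neighbours.

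The clearest movement was a rise of Gabrg1 and Gabra5 at 7 d that was gone at 2.5 months. Over the mean of both genotypes, 3 of the 7 subunits passed the test at 7 d against naive, where 21.1% of all genes did (10.8% higher and 10.3% lower): Gabrg1 and Gabra5 were higher and Gabrb2 was lower. The same samples also make up the comparisons within each genotype, given below.

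Gabrg1 lies at chr5:70751047-70842617 (GRCm38, minus strand), next to Gabra2 at chr5:70957597-71095849 on the same strand. Its libraries held 24.9, 24.6, 33.2 and 28.1 CPM in naive WT and 35.3, 33.7, 20.4 and 31.6 CPM in naive KO. At 7 d they held 42.4, 27.4 and 43.96 CPM in WT and 88.9, 72.2 and 43.1 CPM in KO. Of the 6 libraries at 7 d, 5 were above all 8 naive ones, and WT-410 was the exception. The 2 highest values were both from the injured KO group. The rise was 0.81 ± 0.17 (log2, SE) over both genotypes, or 1.75-fold (adjusted p = 0.00246, edgeR quasi-likelihood test with Benjamini-Hochberg adjustment), and the call held under all 24 alternative settings tried.

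Gabra5 lies at chr7:57407672-57510059 (GRCm38, minus strand). It held 7.48, 9.09, 12.3 and 9.03 CPM in naive WT and 8.22, 9.65, 5.85 and 8.16 CPM in naive KO. At 7 d it held 15.7, 12.7 and 13.9 CPM in WT and 19.5, 18.5 and 9.93 CPM in KO. Again 5 of the 6 libraries at 7 d lay above all 8 naive ones, here with KO-426 as the exception. Gabra5 rose by 0.79 ± 0.15 (log2, SE) over both genotypes, 1.73-fold (adjusted p = 0.00175, edgeR), and this call also held under all 24 alternatives. An antisense gene that shares 148 exon bases with Gabra5 is not in the count table, and no source used here gives the strand setting of the counting.

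The 250 bases before the start of these 2 genes are shown because their transcripts moved together; they are RefSeq sequences on GRCm38.p6, written 5′ to 3′ on the strand of the gene, with CG pairs in capitals. The Gabrg1 stretch is chr5:70842618-70842867 and the Gabra5 stretch is chr7:57510060-57510309, both on the minus strand.
Gabrg1: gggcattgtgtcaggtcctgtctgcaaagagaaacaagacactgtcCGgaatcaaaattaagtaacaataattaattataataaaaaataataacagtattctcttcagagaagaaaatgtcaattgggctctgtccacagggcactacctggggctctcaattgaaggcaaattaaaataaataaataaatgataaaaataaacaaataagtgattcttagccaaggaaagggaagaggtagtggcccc
Gabra5: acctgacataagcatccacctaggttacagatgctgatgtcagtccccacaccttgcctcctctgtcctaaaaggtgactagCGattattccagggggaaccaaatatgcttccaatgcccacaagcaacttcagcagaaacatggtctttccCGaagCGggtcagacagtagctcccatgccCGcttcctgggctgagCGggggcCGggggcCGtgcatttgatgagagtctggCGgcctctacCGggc
The first is AT-rich, with 35.6% G and C and 1 CG pair, and the second has 56.4% G and C and 9 CG pairs. Because the study is about cFOS, whose dimers bind the AP-1 letters TGANTCA, these were searched on both strands in windows from 250 bases before to 50 after the start, together with the CRE letters TGACGTCA. None of the 10 windows of the 7 subunits held either; of all 32851 windows 7.81% held the first and 1.79% the second. The letters are absent from these windows, which says nothing of binding elsewhere. Windows of the members ranged widely in composition: that of Gabbr2 had 80.3% G and C with 46 CG pairs, while the median of all windows was 52.7% with 7 pairs.

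**Figure D2:**
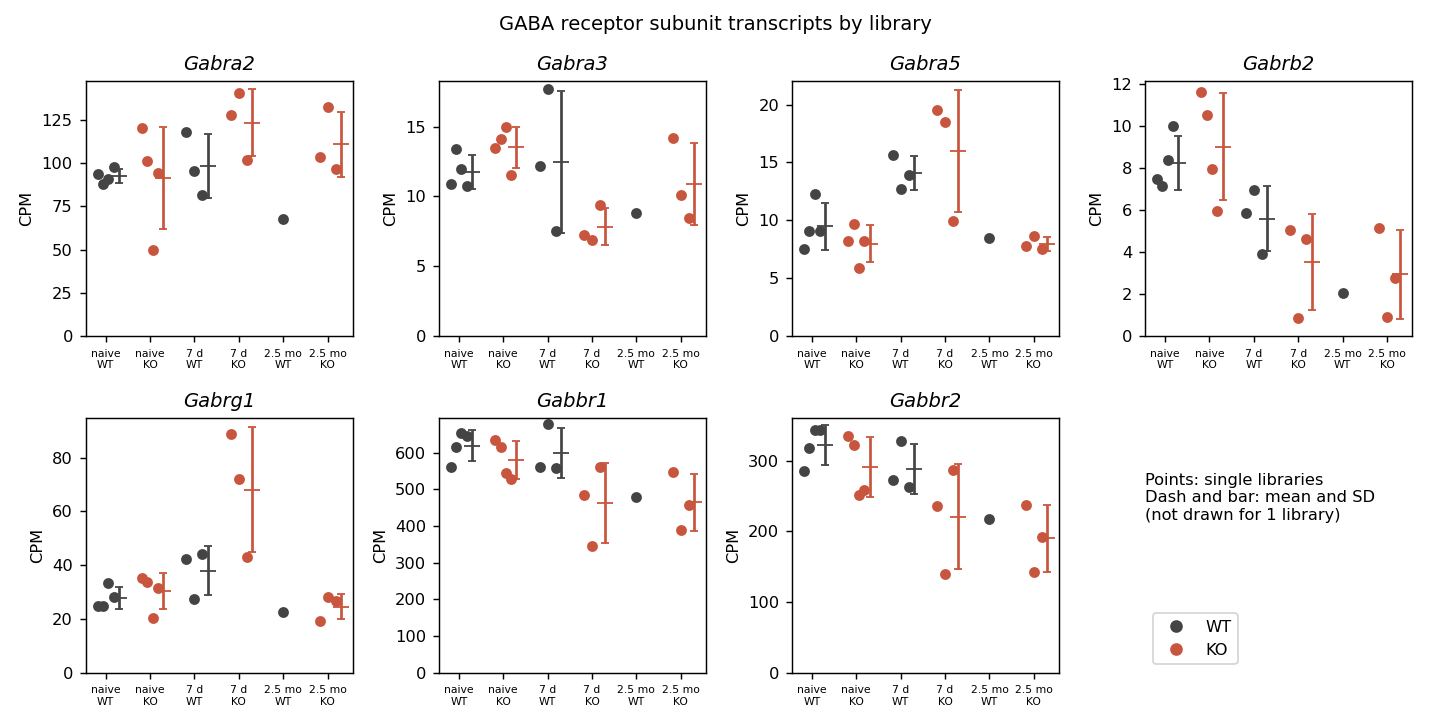
CPM of each of the 7 subunits by group; points are single libraries (WT dark, KO red) and the dash with its bar is the mean and SD, not drawn for the 1 WT library at 2.5 months. For Gabrg1 and Gabra5, 5 of 6 libraries at 7 d lie above all naive libraries, and for Gabrb2 5 of 6 lie below them.

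Within the KO genotype 3 of the 7 subunits changed from naive to 7 d, where 13.5% of all genes were called (7.61% higher and 5.89% lower). Gabrg1 rose by 1.17 ± 0.23 (log2, SE; 2.25-fold, adjusted p = 0.00366) and Gabra5 by 1.003 ± 0.22 (2.0-fold, adjusted p = 0.00652, both edgeR). For both genes the injured and naive KO libraries did not overlap. Gabra3, an alpha subunit, held 13.5, 14.1, 14.99 and 11.5 CPM in naive KO and 7.21, 6.91 and 9.38 CPM at 7 d, again without overlap. It fell by 0.79 ± 0.24 (log2, SE; adjusted p = 0.0355, edgeR).

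At 2.5 months Gabra3 held 14.2, 10.1 and 8.47 CPM in KO and 8.79 CPM in the WT library, and it was not called against naive or against 7 d. The fall of Gabra3 at 7 d was less firm than the 2 rises. It was lost on leaving out KO-35 (adjusted p = 0.0668), KO-39 (0.0742), KO-40 (0.0695), KO-420 (0.0960) or KO-422 (0.104, edgeR). Without KO-39, KO-40 and KO-422 together, 0 of the 7 passed, where 6.87% of all genes did. With all libraries 5 had an unadjusted p under 0.05. Without those 3 libraries Gabrg1 was at 0.97 (adjusted p = 0.0677), Gabra5 at 0.84 (0.0666) and Gabra3 at -0.60 (0.270, edgeR). With only the naive and 7 d KO groups in the fit, the adjusted p of Gabra5 was 0.0544 (edgeR).

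Within WT, 0 of the 7 passed at 7 d against naive by edgeR or by DESeq2, where 3.18% of all genes were called by edgeR, and 1 had an unadjusted p under 0.05. That was Gabra5, at 0.58 ± 0.22 (log2, SE, adjusted p = 0.179, edgeR), whose 3 injured libraries were all above the 4 naive ones. Gabrg1 was at 0.45 ± 0.24 with a 95% interval from -0.04 to 0.95 (adjusted p = 0.349, edgeR). Gabra3 was at 0.09 ± 0.23, its 3 libraries at 12.2, 17.7 and 7.54 CPM spreading to both sides of the naive WT range of 10.7 to 13.4 CPM. Without WT-410, its highest library at 7 d, Gabra3 passed over both genotypes, at -0.52 (adjusted p = 0.0241, edgeR), against -0.35 ± 0.16 (0.142) with it.

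Whether the response at 7 d differed between genotypes was tested as an interaction, in which 0 of the 7 passed by edgeR or DESeq2, and 0.0105% of all genes did. At an unadjusted p under 0.05 there were 2. Gabrg1 had an interaction of 0.72 ± 0.33 (log2, SE; positive where the KO change was larger), with a 95% interval of 0.02 to 1.42 (adjusted p = 0.948, edgeR). Gabra3 differed by -0.88 ± 0.33 (interval -1.56 to -0.19, adjusted p = 0.948, edgeR). Both intervals reach past 1 log2 unit.

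The injured libraries also differed in how much injury signal they held. The summed CPM of 8 injured neuron markers was 235 to 510 in naive libraries, 1889 to 3521 at 7 d in WT and 2463 to 6614 at 7 d in KO. At 2.5 months it was 712 to 1095. The 2 KO libraries with the most Gabrg1, KO-420 and KO-422, also had the largest marker sums, and the part of that difference in the Gabrg1 values was not tested. Macrophage markers, 6 genes, summed to 18.8 to 76.7 CPM in naive libraries and 66.0 to 211 CPM at 7 d. The sum of 6 Schwann cell myelin markers was 4020 to 10939 CPM in naive libraries and 2447 to 4891 CPM at 7 d. Endothelial markers, 6 genes, summed to 77.8 to 151 CPM in naive libraries and 33.3 to 79.3 CPM at 7 d. At 7 d over both genotypes, 4 endothelial and 4 Schwann cell myelin markers were called lower and 5 macrophage markers higher. Of all genes, 10.3% were called lower and 10.8% higher there. The part of these cell types in the subunit values was not tested.

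**Figure D3:**
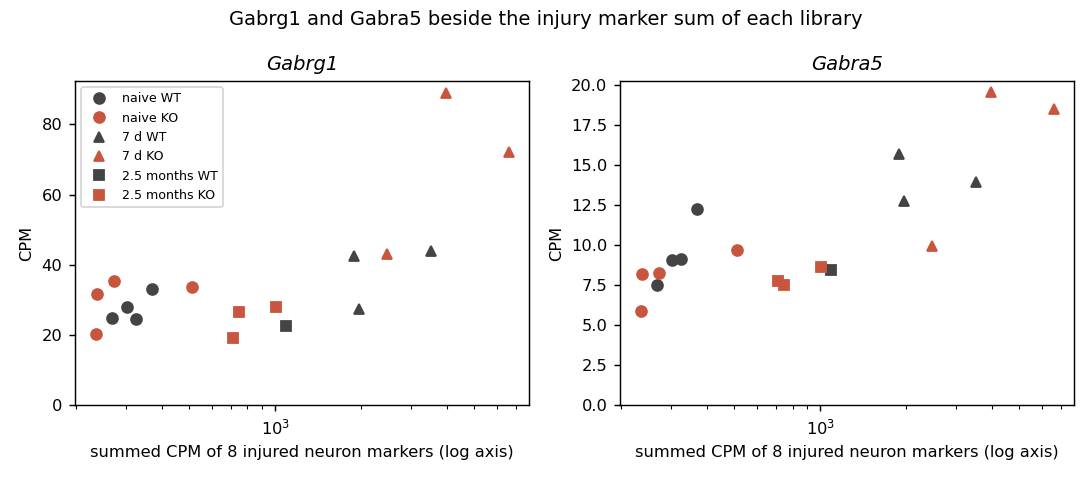
CPM of Gabrg1 and Gabra5 in each library against the summed CPM of 8 injured neuron markers on a log axis; shape gives the time and colour the genotype. The 3 injured KO libraries span marker sums of 2463 to 6614, and at 2.5 months sums of 712 to 1095 go with Gabrg1 of 19.2 to 27.99 CPM.

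At 2.5 months the early rise was gone. In KO, 2 of the 7 subunits were lower at 2.5 months than at 7 d, where 6.48% of all genes were called (2.14% higher and 4.33% lower). Gabrg1 held 19.2, 27.99 and 26.5 CPM at 2.5 months, all below the 3 libraries at 7 d, and fell by 1.47 ± 0.26 (log2, SE; adjusted p = 0.00282, edgeR), a call that held under all 24 alternatives. Gabra5 held 7.75, 8.63 and 7.51 CPM, also below all libraries at 7 d, and fell by 1.01 ± 0.24 (adjusted p = 0.0183, edgeR). Without KO-420, KO-362 or KO-378 the adjusted p of Gabra5 was 0.109, 0.0567 or 0.0736, and in a fit of the 2 groups alone it was 0.125 (edgeR).

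Against naive KO, Gabrg1 at 2.5 months was at -0.30 ± 0.24 (log2, 95% interval -0.80 to 0.20) and Gabra5 at 0.00 ± 0.22 (interval -0.47 to 0.46), neither called. The lone WT library at 2.5 months held 22.5 CPM of Gabrg1, just below the lowest naive WT library. Its 8.44 CPM of Gabra5 lay within the naive WT range.

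Gabrb2, a beta subunit, had lower means after injury at both times, with calls that were lost in some of the alternatives. It lies at chr11:42419757-42629028 (GRCm38, plus strand). Its counts were the smallest of the members, from 11 to 246 per library, so its values are the least precise. Naive libraries held 7.48, 7.14, 8.41 and 9.99 CPM in WT and 11.6, 10.5, 7.97 and 5.95 CPM in KO.

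At 7 d the WT libraries held 5.88, 6.97 and 3.93 CPM of Gabrb2 and the KO libraries 5.05, 0.874 and 4.61 CPM. The 6 injured libraries were below all 8 naive ones except for WT-410. In KO alone the difference was -1.35 ± 0.48 (log2, adjusted p = 0.0688, edgeR), which passed with DESeq2 (adjusted p = 0.0298) and without KO-367 (0.0375, edgeR). Over both genotypes Gabrb2 fell by 0.96 ± 0.33 (log2, SE; adjusted p = 0.0482, edgeR), close to the threshold. The call was lost in 14 of 24 alternatives, with adjusted p of 0.0505 to 0.138: without any filter on low counts, without KO-39, KO-40 and KO-422 together, and on leaving out any 1 of WT-28, WT-44, WT-48, WT-67, WT-409, WT-410, WT-416, KO-35, KO-39, KO-40, KO-422 and KO-378. Without KO-422, the lowest, the value was -0.73 (adjusted p = 0.0799, edgeR).

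At 2.5 months the KO libraries held 5.15, 0.899 and 2.77 CPM of Gabrb2, all below the 4 naive KO libraries, and WT-376 held 2.02 CPM. Gabrb2 was the 1 subunit of 7 called in KO at 2.5 months against naive, where 11.6% of all genes were called (6.99% higher and 4.57% lower). It fell by 1.61 ± 0.48 (log2, SE; adjusted p = 0.0390, edgeR). The value was -1.47 with gene-length offsets (adjusted p = 0.0612, edgeR). It was -1.19 without KO-367 (0.161), and the adjusted p was 0.103 without KO-378, 0.0866 without KO-35, 0.0834 without KO-39 and 0.0527 without KO-40 (edgeR).

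In WT, 0 of the 7 passed by edgeR at 2.5 months against naive (13.0% of all genes did), 1 had an unadjusted p under 0.05 and 1 passed with DESeq2. Gabrb2 was that gene in both cases, at -2.02 ± 0.80 (log2, SE, adjusted p = 0.0991, edgeR) from 1 library whose spread is borrowed from the other groups. Without KO-422 it passed in edgeR (adjusted p = 0.0358). Injury at 2.5 months shares its naive libraries with injury at 7 d within each genotype. The lowest Gabrb2 values, in KO-422 and KO-367, came from libraries in which long genes were under-counted, and the part of this in the fall was tested only through the gene-length offsets.

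Gabra2, the chromosomal neighbour of Gabrg1, was not called at either time in the fit of all groups. It held 93.9, 87.9, 91.0 and 97.7 CPM in naive WT and 120, 101, 50.03 and 94.5 CPM in naive KO, where KO-40 was the low one. At 7 d it held 118, 95.3 and 81.8 CPM in WT and 128, 140 and 102 CPM in KO. Of the 6 libraries at 7 d, 2 lay above all 8 naive ones and the others overlapped them. The estimate was 0.43 ± 0.21 in KO (log2, 95% interval -0.01 to 0.88, adjusted p = 0.182, edgeR) and 0.26 ± 0.15 (log2, 95% interval -0.06 to 0.58, adjusted p = 0.234, edgeR) over both genotypes. At 2.5 months the KO libraries held 104, 133 and 96.6 CPM and WT-376 held 67.7 CPM. In a fit of naive WT and WT-376 by themselves, with 1 library at 2.5 months, the WT difference was -0.44 (log2).

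The GABA-B subunits had lower means late after injury in KO, short of the threshold for both. Gabbr1 lies at chr17:37045966-37075067 on the plus strand and Gabbr2 at chr4:46662305-46991873 on the minus strand (GRCm38). Gabbr2 held 335, 322, 252 and 259 CPM in naive KO and 238, 142 and 192 CPM in KO at 2.5 months, without overlap. The difference was -0.61 ± 0.20 (log2, 95% interval -1.04 to -0.19, adjusted p = 0.0570, edgeR). It passed with DESeq2 (adjusted p = 0.0269) and in a fit of the 2 groups alone (0.0313, edgeR), and was -0.46 with gene-length offsets (0.0978, edgeR). It also passed in edgeR without KO-422 (0.00824), KO-426 (0.0360) or KO-362 (0.0417), and without KO-39, KO-40 and KO-422 together (0.0300). Leaving out any other single library did not bring it past the threshold.

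In WT, Gabbr2 held 285, 318, 344 and 344 CPM when naive and 274, 329 and 264 CPM at 7 d, and Gabbr1 561, 616, 653 and 646 CPM and then 562, 679 and 558 CPM. The times overlapped for both genes. Gabbr1 held 635, 614, 545 and 527 CPM in naive KO and 547, 389 and 456 CPM in KO at 2.5 months, with overlap. Its difference was -0.32 ± 0.15 (log2, adjusted p = 0.146, edgeR). At 7 d the KO libraries held 485, 345 and 560 CPM of Gabbr1 and 236, 140 and 288 CPM of Gabbr2, lowest both times in KO-422. Both genes were within 1 log2 unit of naive over both genotypes, with 95% intervals of -0.41 to 0.04 for Gabbr1 and -0.58 to 0.02 for Gabbr2. Without KO-426 Gabbr1 was at -0.48 in KO (adjusted p = 0.0436, edgeR). Without it the value of Gabbr2 was -0.63 in KO (adjusted p = 0.0479) and -0.40 over both genotypes (0.0480, edgeR), so that all 3 values passed the threshold. KO-426 was the highest KO library at 7 d for both genes. Its omission leaves KO-420 and KO-422, and in KO-422 long genes were under-counted. The part of gene length in these 3 values was not tested.

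The ratio of Gabbr1 to Gabbr2, in CPM per kilobase, was 1.65 ± 0.0334 in naive WT (SD, n = 4) and 1.79 ± 0.0298 at 7 d in WT (SD, n = 3). In KO it was 1.72 ± 0.109 when naive, 1.86 ± 0.234 at 7 d and 2.13 ± 0.198 at 2.5 months. The lone WT library at 2.5 months was at 1.90. Gabbr1 was thus the more abundant partner in every library. The size of the ratio depends on the length used: per kilobase of the longest coding transcript, naive WT held 118 and 56.1 CPM. Long genes were under-counted in KO-422 and at 2.5 months, and the part of this in the ratio was not tested.

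Whether KO and WT differed in these subunits was tested at each time, and no call was made. In naive ganglia 0 of the 7 subunits differed between KO and WT by edgeR or DESeq2, none had an unadjusted p under 0.05, and 0.0263% of all genes were called. The 95% intervals reached from -0.67 (Gabra5) to 0.64 (Gabra3) on the log2 scale, and for the scarcer Gabrb2 from -0.73 to 0.98. At 7 d 0 of the 7 were called by either tool, against 0.00526% of all genes, and 3 had an unadjusted p under 0.05. Gabrg1 was at 0.84 ± 0.25 higher in KO (interval 0.31 to 1.38, adjusted p = 0.517, edgeR), and its lowest KO library, at 43.1 CPM, lay below the highest WT library, at 43.96 CPM.

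Gabra3 at 7 d was at -0.67 ± 0.25 in KO against WT (log2, interval -1.20 to -0.14, adjusted p = 0.562, edgeR), and Gabbr1 at -0.37 ± 0.16 (interval -0.71 to -0.03, adjusted p = 0.589, edgeR). At 2.5 months 0 of the 7 were called by either tool and 0.0473% of all genes were, with 1 unadjusted p under 0.05. That was Gabra2, at 0.71 ± 0.34 (interval 0.00 to 1.43, adjusted p = 0.406, edgeR), against a single WT library.

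**Figure D4:**
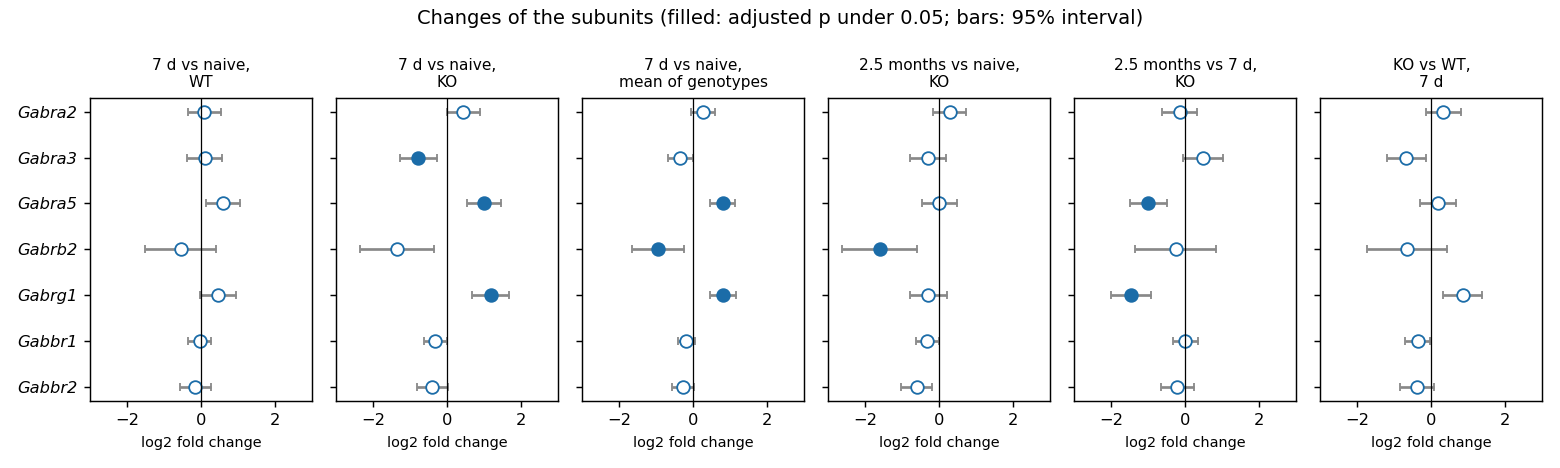
Log2 fold change of each subunit (point) with its 95% interval (bar) in 6 comparisons; filled points have an adjusted p under 0.05 in edgeR. Gabrg1 and Gabra5 lie to the right at 7 d in KO and in the mean of genotypes and to the left at 2.5 months against 7 d, and no point is filled for KO against WT.

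Of 11 other GABA-A subunits listed, 9 were in the table and 8 were tested; Gabra6 and Gabrp were not analysed here. At 7 d over both genotypes 1 rose and 1 fell, where 21.1% of all genes were called, with a median of -0.21 (log2) beside -0.00 over all genes. Gabrb1, a beta subunit, rose by 0.70 ± 0.18 (adjusted p = 0.0113, edgeR), a call that held under all 24 alternatives.

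Over both genotypes Gabrd, the delta subunit of channels outside the synapse, fell by 1.05 ± 0.35 (log2, SE, adjusted p = 0.0418, edgeR), a call lost in 13 of 24 alternatives. In KO alone it fell by 2.23 ± 0.55 (adjusted p = 0.0138, edgeR), but not without KO-420 (0.0573) or without KO-39, KO-40 and KO-422 together (0.0996). Gabrd was scarce, at 0.868 ± 0.404 CPM in naive WT (SD, n = 4). The WT libraries at 7 d held 0.956, 0.996 and 0.924 CPM, within the naive WT range of 0.308 to 1.26 CPM.

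GABA-A subunit genes lie in clusters, and the values at 7 d over both genotypes can be set out by position, an arrangement chosen after the values were seen. On chromosome 5, Gabrg1 and Gabrb1 (chr5:71658113-72149037) rose, while between them Gabra2 was at 0.26 ± 0.15 and Gabra4 (chr5:71569749-71658308) at -0.26 ± 0.23 (log2), neither called. On chromosome 7, Gabra5 rose, and Gabrg3 at -0.15 ± 0.34 was not called. The X-linked pair of Gabra3 and Gabre was not called. The ends of Gabra4 and Gabrb1 overlap on opposite strands, so reads there cannot be assigned without the strand setting.

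Between 7 d and 2.5 months in KO 1 of the 8 other subunits rose, where 6.48% of all genes were called (2.14% higher and 4.33% lower). That was Gabra4, by 1.25 ± 0.35 (log2, adjusted p = 0.0425, edgeR), a call lost in 10 of 24 alternatives. Gabra4 was scarce, with 6, 12 and 11 counts in the KO libraries at 7 d.

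Of 8 genes listed that make, carry or break down GABA, 7 were tested (the vesicular transporter Slc32a1 was not analysed here), and at 7 d over both genotypes 1 rose and 2 fell, where 10.8% of all genes were called higher and 10.3% lower. Their median was -0.62 (log2) beside -0.00 over all genes. Aldh5a1, the enzyme that clears the breakdown product of GABA, fell by 0.62 ± 0.09 (adjusted p = 0.000207, edgeR). The GABA transporter Slc6a11 fell by 0.90 ± 0.24 (adjusted p = 0.0128, edgeR). Both held under all 24 alternatives. Gad2, a GABA-synthesising enzyme, was called higher at 2.22 ± 0.68 (adjusted p = 0.0284, edgeR), but it held between 0 and 1.001 CPM at 7 d, and the call was lost in 5 of 22 alternatives.

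Within genotypes, Aldh5a1 fell at 7 d by 0.54 ± 0.13 in WT (adjusted p = 0.0305) and by 0.70 ± 0.13 in KO (0.00274, both edgeR). At 2.5 months it fell by 0.56 ± 0.13 in KO (adjusted p = 0.0194, edgeR). These calls were lost in 6, 1 and 4 alternatives. In the lone WT library at 2.5 months, in which long genes were under-counted, Aldh5a1 was lower by 0.66 (log2). In KO, Slc6a11 fell by 1.35 ± 0.34 at 7 d (adjusted p = 0.0161) and 1.23 ± 0.33 at 2.5 months (0.0290, edgeR). The second call was lost without KO-35 (adjusted p = 0.0508), KO-39 (0.0593), KO-40 (0.0639), KO-362 (0.0505), KO-367 (0.104) or KO-378 (0.0951, edgeR). Slc6a11 at 7 d was lost without KO-39, KO-40 and KO-422 together (-0.67, adjusted p = 0.152, edgeR). It was also lost when naive KO and 7 d KO were fitted by themselves (-1.33, adjusted p = 0.100, edgeR).

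Among 11 genes of receptor anchoring and traffic, 1 rose and 1 fell at 7 d over both genotypes, a share near the 21.1% of all genes called, with a median of -0.08 (log2) beside -0.00 over all genes. Nlgn2, an adhesion protein of inhibitory synapses, rose by 0.37 ± 0.09 (adjusted p = 0.00909, edgeR). Nsf, a membrane fusion ATPase, fell by 0.29 ± 0.10 (adjusted p = 0.0475, edgeR), a call lost in 18 of 24 alternatives. At 2.5 months in KO, Gabarap, which binds gamma subunits and also serves autophagy, rose by 0.88 ± 0.20 (adjusted p = 0.0184, edgeR; lost in 3 of 24).

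In the lone WT library at 2.5 months Gabarap was higher by 1.44 ± 0.27 and Gabarapl2, its relative, by 0.84 ± 0.25 (log2, adjusted p = 0.00557 and 0.0339, edgeR). The call of Gabarap held under all 23 alternatives possible there and that of Gabarapl2 under 19; with gene-length offsets Gabarapl2 was at 0.57 (adjusted p = 0.0709, edgeR). Both were high in the libraries that stood apart in gene length. Gabarap held 422.02 to 694 CPM in the 4 libraries at 2.5 months and 555 CPM in KO-422, against 249 and 254 CPM in the other KO libraries at 7 d. Gabarapl2 held 61.4 to 81.2 CPM at 2.5 months and 79.5 CPM in KO-422, against 38.3 and 40.97 CPM in the other KO libraries at 7 d. The part of gene length in these calls was tested only through the offsets.

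Chloride transporters set the direction of GABA-A currents. Of 8 such genes and their kinases, 0 rose and 1 fell at 7 d over both genotypes, where 21.1% of all genes were called: Slc12a7, a potassium-chloride exporter, by 0.45 ± 0.14 (log2, adjusted p = 0.0274, edgeR; lost in 6 of 24 alternatives). Slc12a2, the importer that keeps chloride high in these neurons, held 126 ± 6.12 CPM in naive WT (SD, n = 4) and was at -0.28 ± 0.11 at 7 d (adjusted p = 0.0768, edgeR), not called. Slc12a5, the main exporter of central neurons, held 1.11 ± 0.331 CPM there. In the lone WT library at 2.5 months Slc12a2 was called lower at -0.84 ± 0.24 (adjusted p = 0.0298) and the kinase Wnk3 at -1.41 ± 0.44 (adjusted p = 0.0444, edgeR). Both calls were lost with gene-length offsets (adjusted p = 0.0922 and 0.0790, edgeR).

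Around the GABA-B receptor, 9 of 10 listed partners were tested, and at 7 d over both genotypes 1 rose and 2 fell, where 21.1% of all genes were called. Their median was -0.29 (log2) beside -0.00 over all genes. Ajap1, an adhesion protein that binds Gabbr1, rose by 2.35 ± 0.31 (log2, adjusted p = 5.65e-05, edgeR), from 0.445 ± 0.162 CPM in naive WT (SD, n = 4) to 1.88 ± 0.760 CPM at 7 d in WT and 3.75 ± 1.83 CPM in KO (SD, n = 3 each). It then fell by 4.75 ± 0.59 from 7 d to 2.5 months in KO (adjusted p = 0.000282, edgeR). Kcnj3, a channel subunit opened by GABA-B signalling, fell by 0.51 ± 0.11 (adjusted p = 0.00386, edgeR), and Rgs7, which ends that signal, by 0.35 ± 0.09 (adjusted p = 0.0109, edgeR). These 4 calls held under all 24 alternatives. In WT alone Kcnj3 fell by 0.60 ± 0.16 at 7 d (adjusted p = 0.0455, edgeR; lost in 16 of 24) and by 0.94 ± 0.24 in the lone library at 2.5 months (0.0201, edgeR; lost with gene-length offsets, 0.0533). Ajap1 rose in each genotype alone, by 2.06 ± 0.46 in WT (adjusted p = 0.0178) and 2.64 ± 0.43 in KO (0.000737, edgeR), the first lost in 4 of 24. In KO at 2.5 months against naive, Ajap1 (-2.12 ± 0.62, adjusted p = 0.0385, edgeR) and Kctd12b (-0.82 ± 0.25, adjusted p = 0.0434, edgeR) were called lower, lost in 8 and 12 of 24 alternatives.

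For each subunit the genes with the most similar profile over the 18 libraries were ranked by Pearson's r of log2 CPM among 14157 genes, as a description in which all points share the same libraries and groups. Gabrg1 was closest to Nsg1, a neuronal endosome protein (r = 0.958), and to Tbc1d19 (r = 0.952). Gabra5 was closest to Sema4f, a semaphorin (r = 0.955), and Ccdc162 (r = 0.946). Gabrb2 was closest to Dock3, a neuronal guanine exchange factor (r = 0.973), and Trappc10 (r = 0.971).

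Gabbr1 was closest to its own partner Gabbr2 (r = 0.980) and to Mtor (r = 0.970). Gabbr2 was closest to Mtor, the growth kinase (r = 0.985), ahead of Gabbr1. Gabra2 was closest to Rars (r = 0.925) and Esf1 (r = 0.911), and Gabra3 to Scn2b, a sodium channel beta subunit (r = 0.911), and Lrguk (r = 0.899). Among the members themselves, r was 0.858 between Gabra5 and Gabrg1, 0.937 between Gabrb2 and Gabbr2, and 0.917 between Gabrb2 and Gabbr1. Gabrb2, Gabbr1 and Gabbr2 shared their lowest values, in KO-422 and KO-367, libraries in which long genes were under-counted. The part of gene length in these values of r was not tested.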

How the data were processed

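Ganglion RNA was sequenced as poly(A) libraries, per the labels' protocols. Per the submitters' processing notes, reads were handled with STAR 2.4.2a0 and HTSeq 0.6.1p1, next to bcl2fastq 2.17.1.14, DESeq2 1.10.1 and cutadapt, on the GRCm38 genome. No source used here gives the annotation release or the strand setting. The deposited raw counts per gene were used; the authors' normalized table was not used. Members and gene lists were chosen with earlier results of these data known. Symbols and exon lengths came from GENCODE M21 (21258 of 21288 genes matched).

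Counts were tested with edgeR 4.0.16 in R 4.3.3: TMM scaling, filterByExpr (minimum count 10, minimum total 15), 1 robust quasi-likelihood fit with 1 mean per group over 18 libraries (12 residual degrees of freedom), Benjamini-Hochberg adjustment over 19010 genes, called at an adjusted p under 0.05. Standard errors come from the F statistic. Alternatives were RLE scaling, no filter, gene-length offsets (a lowess trend, span 0.5), the compared groups alone, DESeq2 1.42.0, omission of KO-39, KO-40 and KO-422, and of each library in turn. Likeness used log2 CPM with a prior count of 2 among genes of at least 1 CPM in some group. The scripts were tested on simulated counts. Beside the members, called genes of 5 lists are named, at most 4 per list and comparison by adjusted p. Library numbers are not shared between groups, so no pairing was made. Some genes of the lists are not reported here and were left out of the list counts.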

Additional observations from a re-analysis of the deposited data

How the results depend on the processing

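No paired analysis was possible because the groups share no library numbers. The number of the 7 subunits called moved by over 1.5 times, or from 0, in 4 of the 10 comparisons. In KO at 7 d against naive (3 called) it was 0 without KO-39, KO-40 and KO-422, and 2 to 5 on leaving out 1 library. In KO at 2.5 months against naive (1 called) it was 0 with gene-length offsets, 2 with the compared groups alone, with DESeq2 and without the 3 libraries, and 0 to 2 on leaving out 1 library. It also moved in WT at 2.5 months against naive (0 called), where the injured group is 1 library. In KO at 2.5 months against 7 d (2 called, beside 6.48% of all genes) it was 1 with the compared groups alone (1.81%). Leaving out 1 library gave 1 to 2 (1.90% to 27.2%). The cause was not tested. No called fold change turned its direction, and no scaling moved the median of all genes by over 0.1 (log2).

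The count of all genes called was more sensitive. In KO at 7 d against naive it was 2566, with 886 for the groups alone, 1279 without the 3 libraries, and 1628 to 3392 on leaving out 1 library (1628 without KO-35, 1700 without KO-39). In WT at 7 d it was 604, with 1111 by DESeq2, 968 without the 3 libraries, 220 without WT-416, 335 without WT-67, 358 without WT-28, 387 without WT-44 and 972 without KO-422. In KO at 2.5 months against naive it was 2196, with 1237 under gene-length offsets, 4097 for the groups alone, 3602 by DESeq2, 14 without KO-367, 366 without KO-39, 385 without KO-35, 458 without KO-378, 1396 without KO-95 and 4851 without KO-422. In WT at 2.5 months it was 2473, with 1521 under gene-length offsets, 5876 for the groups alone, 4139 without the 3 libraries, 1533 without WT-67, 1566 without WT-44 and 4173 without KO-422. In KO at 2.5 months against 7 d it was 1231, with 285 for the groups alone, 2049 by DESeq2, 5059 without the 3 libraries, 361 without KO-420, 490 without KO-378, 600 without KO-367, 748 without KO-362 and 5131 without KO-422. For KO against WT it was 5 when naive (9 with gene-length offsets, 8 for the groups alone, 15 by DESeq2, 10 without KO-422), 1 at 7 d (20 by DESeq2, 9 without WT-416, 2 without KO-426) and 9 at 2.5 months (15 with offsets, 5 for the groups alone, 151 by DESeq2, 70 without the 3 libraries, 134 without KO-422, 3 without WT-44, WT-67, KO-362 or KO-367, 4 without KO-95 or KO-378, 5 without KO-35). The interaction gave 2, and 1 with offsets or without the 3 libraries. Depth limits Gabrb2 most, with 11 counts in its lowest library.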
